A study of Drosophila melanogaster with 3 samples.

Results

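Intronic CG16779-eGFP peaks a short way inside or beside genes made up 761 of the 4805 reproducible peaks on the chromosome arms, or 15.8% (95% exact binomial interval 14.8 to 16.9, counting error only). They were chosen by position alone: the summit, the base at which a peak is highest, lay in an intron of an annotated gene, in no annotated exon, and from 501 to 2000 bp from the nearest annotated transcription start of any gene. The reproducible peaks are the set the authors selected by irreproducible discovery rate (IDR), a method that keeps regions ranked alike in separate libraries, and are called IDR peaks here.

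The data are chromatin immunoprecipitation followed by sequencing from whole Drosophila melanogaster prepupae, with both sexes pooled and the age given as unknown. The animals came from a single MiMIC-derived line, in which eGFP is carried as an extra exon within an intron of CG16779, so that the native gene yields a tagged protein, and an antibody against GFP was used on chromatin sonicated to fragments of 200 to 800 bp. All libraries belong to 1 group of 3 biological replicates, every one with the tagged allele, and control libraries were not analysed here. Whole animals mix all tissues, so a peak in few cells and a weak peak in many cells cannot be told apart, and read depth is unknown from these files. Whether the replicates came from separate collections of animals is not given, so p-values measure only the spread between these samples. The tagged gene itself hosted 0 of the 761 peaks.

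Introns near the start of a gene, the first intron above all, are known in flies to hold many enhancers and alternative promoters. Transcription factors and chromatin proteins are often found there beside the promoter itself. A prepupa has just left the larval stage under a pulse of the steroid hormone ecdysone, when larval tissues are removed and adult structures form.

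The bases under the strongest of these peaks are shown first because they carry the sequence results given further on, above all the low G+C content at the summit. The stretches are those of 8 of the 9 peaks with the largest scores (the one in HmgZ is not printed), read from the plus strand of dm6, 121 bases centred on the summit or, at Lk6, 201 bases. Capitals mark any match on either strand to TAATTA, a core word of homeodomain factors, to GAGAGAG, the GA repeat bound by GAGA factor, or to ACAGTGG, a word picked from these data as described below. Names are those of the host genes.
CG11050 (2L:6612644-6612764): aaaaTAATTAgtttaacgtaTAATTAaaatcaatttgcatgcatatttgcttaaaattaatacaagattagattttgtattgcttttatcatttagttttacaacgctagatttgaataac
ush (2L:480996-481116): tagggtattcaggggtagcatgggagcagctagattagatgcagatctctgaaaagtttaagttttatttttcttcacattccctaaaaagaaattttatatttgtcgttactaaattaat
CG32772 (X:4910320-4910440): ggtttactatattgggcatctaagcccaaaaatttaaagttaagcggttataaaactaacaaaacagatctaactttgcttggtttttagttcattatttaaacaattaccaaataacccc
Lk6 (3R:11760956-11761156): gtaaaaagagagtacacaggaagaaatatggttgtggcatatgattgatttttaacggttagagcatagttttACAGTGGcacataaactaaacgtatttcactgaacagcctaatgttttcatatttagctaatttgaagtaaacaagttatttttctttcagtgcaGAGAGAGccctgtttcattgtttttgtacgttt
Trl (3L:14759461-14759581): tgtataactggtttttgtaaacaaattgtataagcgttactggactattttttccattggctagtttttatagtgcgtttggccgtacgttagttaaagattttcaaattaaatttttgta
Reph (2L:3804715-3804835): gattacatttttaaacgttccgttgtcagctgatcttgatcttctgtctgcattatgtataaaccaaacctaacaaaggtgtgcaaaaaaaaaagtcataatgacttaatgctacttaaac
CG9663 (2L:3302127-3302247): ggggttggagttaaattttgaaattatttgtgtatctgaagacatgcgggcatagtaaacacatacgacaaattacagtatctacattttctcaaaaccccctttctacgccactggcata
CG3726 (X:5918864-5918984): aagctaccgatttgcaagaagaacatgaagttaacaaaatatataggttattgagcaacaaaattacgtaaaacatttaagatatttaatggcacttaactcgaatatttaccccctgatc
Across these stretches G+C content was 20.7% at CG11050, 31.4% at ush, 29.8% at CG32772, 32.8% at Lk6, 28.9% at Trl, 32.2% at Reph, 38% at CG9663 and 30.6% at CG3726. CG11050 held 2 matches to TAATTA, and Lk6 held 1 match each to ACAGTGG and GAGAGAG. The other 6 held no match to any of the 3 words.

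Because ACAGTGG and GAGAGAG were found mostly to the side of the summit, some of the strongest further peaks that hold them are printed with 201 bases. The first 4 carry ACAGTGG, or CCACTGT on the plus strand, and the last 2 carry GAGAGAG, or CTCTCTC on the plus strand. CG17834, NFAT, LPCAT and tral were chosen after their values were seen.
neur (3R:9031919-9032119): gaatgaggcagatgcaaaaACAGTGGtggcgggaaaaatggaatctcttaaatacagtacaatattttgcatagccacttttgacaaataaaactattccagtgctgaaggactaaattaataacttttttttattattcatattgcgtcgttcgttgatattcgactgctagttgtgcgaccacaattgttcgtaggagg
for (2L:3655712-3655912): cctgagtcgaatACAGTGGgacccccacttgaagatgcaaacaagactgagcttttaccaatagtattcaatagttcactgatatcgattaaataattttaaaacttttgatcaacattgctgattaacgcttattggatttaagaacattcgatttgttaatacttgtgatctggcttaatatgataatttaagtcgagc
CG17834 (2L:8534760-8534960): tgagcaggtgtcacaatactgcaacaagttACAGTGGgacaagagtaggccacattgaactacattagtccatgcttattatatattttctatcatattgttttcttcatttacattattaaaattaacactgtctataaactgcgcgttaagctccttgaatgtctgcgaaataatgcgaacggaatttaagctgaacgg
NFAT (X:13640424-13640624): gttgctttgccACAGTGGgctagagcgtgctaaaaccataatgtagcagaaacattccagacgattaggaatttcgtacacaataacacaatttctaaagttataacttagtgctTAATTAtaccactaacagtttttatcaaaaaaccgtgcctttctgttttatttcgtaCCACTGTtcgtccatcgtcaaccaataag
LPCAT (X:9579174-9579374): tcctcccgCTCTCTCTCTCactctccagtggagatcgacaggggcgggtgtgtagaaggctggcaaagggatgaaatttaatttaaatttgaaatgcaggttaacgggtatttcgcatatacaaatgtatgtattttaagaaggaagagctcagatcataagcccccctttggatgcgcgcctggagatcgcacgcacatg
tral (3L:12515679-12515879): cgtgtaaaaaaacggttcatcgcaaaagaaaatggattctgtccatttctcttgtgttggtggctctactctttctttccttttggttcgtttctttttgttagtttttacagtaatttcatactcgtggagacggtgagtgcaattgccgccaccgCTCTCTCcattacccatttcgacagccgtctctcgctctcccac
NFAT, a transcription factor gene, held 2 copies of ACAGTGG, 1 on each side of the summit, and a match to TAATTA. LPCAT held 3 overlapping matches to GAGAGAG within 1 GA tract.

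The strongest near-start intronic peaks, led by those in CG11050, ush and CG32772, held high ranks in every library. They were picked by score in the IDR set, which was made from the same libraries, so these ranks are not independent of the choice. Each replicate has its own list of 30000 regions, ordered by the authors' score, which is on a separate scale in each list. The first peak lay in CG11050 (FBgn0031836), on 2L from 6612418 to 6612924, with its summit 1017 bp downstream of the gene's nearest start. The intron around the summit was 140 bp long, so the region of 507 bp reached beyond it. The score of this peak, 3489.3, was the second highest in the IDR set, and the peak ranked 8, 4 and 2 in replicates 1, 2 and 3. The next lay in the first intron of ush (FBgn0003963), whose zinc finger protein is a cofactor of GATA factors. It ranked 17, 12 and 4, with a score of 2915.5 in the IDR set. The start closest to it, 1368 bp away, was that of another gene, cbt, which encodes a zinc finger transcription factor. The peak in CG32772, with a score of 2642.5, ranked 10, 10 and 13.

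Lk6 (FBgn0017581) encodes a kinase that acts on the translation factor eIF4E. Its peak on 3R, from 11760877 to 11761486, ranked 24, 24 and 10 in replicates 1, 2 and 3 and scored 2395.5 in the IDR set. In Trl (FBgn0013263), the gene of GAGA factor, the strongest peak lay 1528 bp from a start site and ranked 34, 17 and 12. The peak in HmgZ, a gene of an HMG-box chromatin protein on 2R, ranked 28, 49 and 9 and scored 2218.7, with its summit in an intron of HmgD as well. These 6 peaks thus stood among the 49 best-ranked regions of every replicate.

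Further down the 20 strongest followed a mixture of characterised and CG-numbered genes. ImpL2, whose secreted product binds insulin-like peptides and whose transcription responds to ecdysone, had a peak ranked 99, 61 and 63. The peak in jumu, a forkhead factor gene, ranked 67, 78 and 77. That in neur, an E3 ubiquitin ligase acting on the ligand Delta, ranked 63, 52 and 160. ImpL2 and jumu thus kept close ranks in all libraries, and neur stood lower in replicate 3. simj, the gene of a NuRD complex subunit, ranked 110, 73 and 69. The gene for, which encodes a cGMP-dependent protein kinase, had a peak ranked 105, 121 and 82. chif, a gene of a Dbf4-related protein needed for DNA replication, ranked 70, 41 and 93. The remaining hosts among the 20 were Reph, CG9663, CG3726, CG13204, CG4496, pnt, Egfr and CG42327.

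Replicate 3 placed 3 of the 20 much lower than the other libraries did. The peak in Egfr, the receptor of the EGF pathway, ranked 42, 69 and 283. That in pnt, an ETS transcription factor at the end of the same pathway, ranked 22, 84 and 216. CG13204 ranked 20, 23 and 184. In each case replicate 3 gave the lowest rank, although all 20 peaks remained among its 4805 strongest regions.

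**Figure D1:**
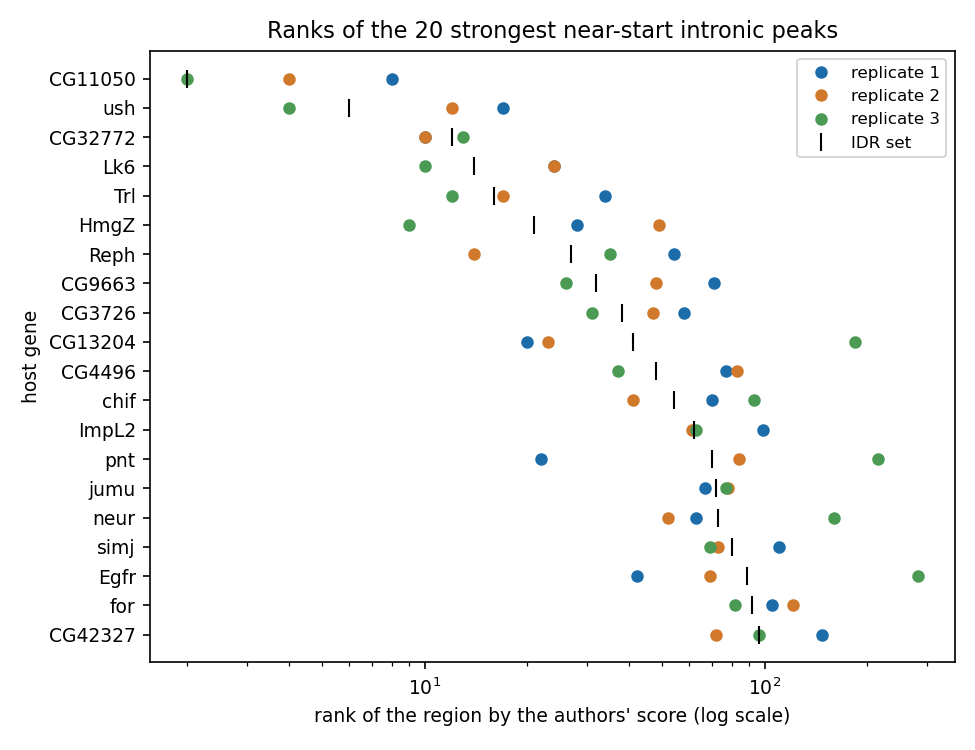
Rank by the authors' score (log scale, 1 is the strongest) of the 20 strongest near-start intronic peaks in each replicate (points) and in the IDR set (vertical ticks). CG11050 lies between 2 and 8 throughout, while Egfr, pnt and CG13204 fall to 283, 216 and 184 in replicate 3.

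Over all 761 peaks, scores lay close to those of IDR peaks in general. Scores ran from 173.9 to 3489, with a median of 284.3, and the quartiles were 213.7 and 443.0. The median percentile of score within the IDR set was 51.5, beside 52.4 for peaks within 500 bp of a start, 49.1 for intronic peaks over 2000 and up to 10000 bp out and 43.9 for those farther out. Within the replicates' own lists the median percentile was 91.3, 92.1 and 92.6 for the near-start intronic peaks and 91.9, 91.7 and 91.8 for the other IDR peaks. The mean difference was 0.195 ± 0.707 points (SD, n = 3, higher in 2 of 3, exact sign-flip permutation test, two-sided, p = 0.75), and -0.112 without replicate 3. Widths ran from 110 to 779 bp with a median of 440. In 4 cases an interval was listed again with another summit, which leaves 757 distinct intervals.

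The near-start intronic peaks were matched in the single libraries at shares near those of all IDR peaks. Among the 4805 strongest regions of each replicate, as many as there are IDR peaks, 76.3%, 76.7% and 77.9% of them were matched by at least 1 bp in replicates 1, 2 and 3, while 79.3%, 77.0% and 74.8% of all IDR peaks were. Their shares thus lay near that background in every library, below it in replicates 1 and 2 and above it in replicate 3. Against the other IDR peaks the mean difference was -0.0238 ± 3.63 points (SD, n = 3, exact sign-flip permutation test, two-sided, p = 1.00). With 3 replicates this test cannot go below 0.25. The IDR set was itself made from these lists, so the match is not independent of it. In all, 386 peaks (50.7%) were matched in every replicate, 235 (30.9%) in 2, 130 (17.1%) in 1 and 10 (1.31%) in none, while of the other IDR peaks 49.4%, 33.4%, 16.1% and 1.11% were.

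The whole lists of 30000 regions held 98.9% of the near-start intronic peaks in replicate 1, 98.6% in replicate 2 and 87.9% in replicate 3, beside 98.9%, 98.6% and 86.6% of other IDR peaks. Replicate 3 thus lacked more peaks of both kinds. Among those it did not list were the peaks in dlp, a glypican gene, in kis, a chromatin remodeller gene, and in Hr3, a nuclear receptor gene, ranked 1017, 993 and 627 in the IDR set. The Hr3 peak, which lies in introns of other genes too and closest to the start of lncRNA:CR46322, ranked 11832 in replicate 1 and 529 in replicate 2. Where a replicate listed the peak, its own summit lay a median of 15, 18 and 19 bp away, and 96.5%, 96.9% and 96.0% of those summits still met the positional rule.

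The near-start intronic zone took a larger share of strong regions than of weak ones. Bases that met the rule covered 11449 kb, or 8.32% of the chromosome arms, and held 6.65 IDR peaks per 100 kb, beside 3.49 per 100 kb over the arms. In each replicate the share under the rule was higher among the 4805 strongest regions than among the rest of its list, at 14.6%, 14.8% and 16.8% of the strongest in replicates 1, 2 and 3 beside 12.4%, 13.3% and 10.5% of the rest. The groups of 3 values did not overlap. The mean difference was 3.29 ± 2.58 points, higher in 3 of 3 replicates (SD, n = 3, exact sign-flip permutation test, two-sided, p = 0.25, the smallest that 3 replicates allow). Replicate 3 had the widest gap, and without it the difference was 1.82. Of 23895 weak regions, those of the authors' pooled list free of any overlap with IDR peaks and with no IDR summit within 500 bp, 2790 or 11.7% met the rule. These 2790 serve below as the weak regions, except in comparisons within a replicate. There the weak regions are the rest of that replicate's own list under the rule: 3132, 3344 and 2644 regions in replicates 1, 2 and 3. Those sets were not cleared of overlap with IDR peaks.

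Within the zone, peaks were densest close to the start site. The median distance was 1049 bp, and the quartiles were 744 and 1475 bp. In 6 steps of 250 bp going outwards from 501 bp, the density was 8.43, 7.48, 6.13, 6.00, 4.98 and 6.12 peaks per 100 kb of the zone. Peak density was thus highest in the first step and lowest in the fifth, with the sixth higher again. Weak regions, which exclude any within 500 bp of an IDR summit, showed little such slope, with between 23.3 and 26.1 per 100 kb, lowest in the first step. Whether that exclusion bears on their slope was not tested.

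The same difference was seen in each replicate's own list. Of its strongest regions under the rule, 47.1%, 46.5% and 46.0% lay within 1000 bp of the start in replicates 1, 2 and 3, while of the remaining regions under the rule 40.0%, 41.3% and 38% did. The mean difference was 6.74 ± 1.38 points, higher in 3 of 3 replicates (SD, n = 3, exact sign-flip permutation test, two-sided, p = 0.25, the smallest possible). This comparison was chosen after the distances had been seen.

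**Figure D2:**
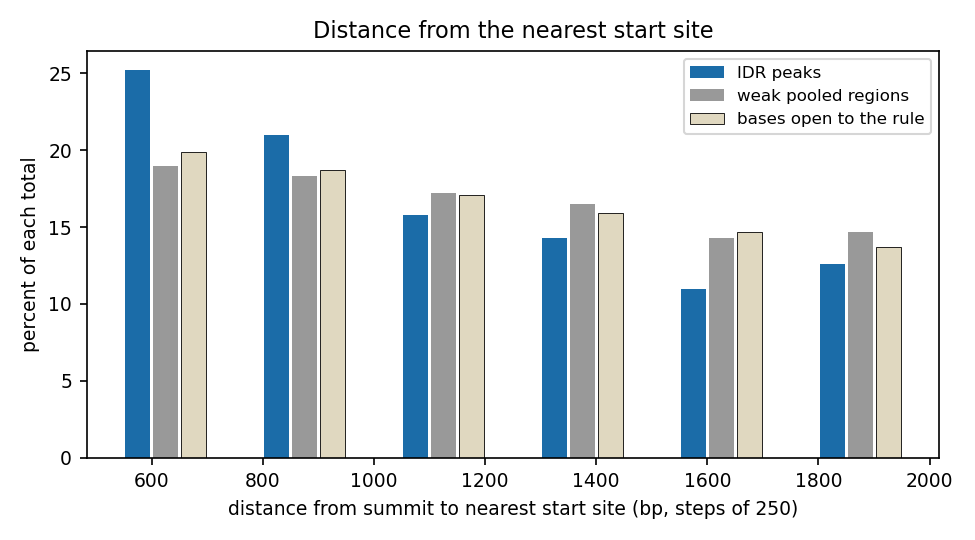
Percent of the 761 near-start intronic IDR peaks, of the 2790 weak regions and of the bases open to the rule in steps of 250 bp from the nearest start site. The first step holds 25.2% of the peaks, 19.0% of the weak regions and 19.9% of the bases.

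At the limits of the rule, peaks just inside and just outside had unremarkable scores. The innermost lay in CG42671, CG6891 and qsm, 501, 503 and 504 bp from a start, with scores of 405.7, 467.0 and 259.9. Those just too close lay in jar, CG11151 and InR, the insulin receptor gene, at 498, 497 and 497 bp, and scored 545.5, 447.3 and 293.1. At the outer limit, the peaks in Samuel, Syp and RhoGAP18B at 2000, 1999 and 1995 bp scored 235.2, 321.0 and 233.7. The first ones beyond it, at most 2013 bp from a start, scored 381.1, 198.4 and 214.1 and lay in CG31678, lncRNA:CR44833 and pum.

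Most of the peaks lay in a first intron, and the nearest start was mostly one of the gene that hosts them. An intronic summit always lies downstream of some start of its host, so only the side of the nearest start is counted here. The host was protein-coding for 745 peaks (97.9%), and 608 of these (81.6%, exact binomial interval 78.6 to 84.3) lay in the first intron of at least 1 transcript. That share was 64.9% for intronic IDR peaks over 2000 and up to 10000 bp out and 74.0% for the weak regions. For 419 peaks (56.2%) the intron was the first in every transcript that has it. The intron was a median of 5051 bp long. The nearest start belonged to the host in 622 cases (81.7%), and the summit lay downstream of it in 449 of these. That start was the gene's outermost one in 250 of the 622, so that for the other hosts an internal start was closest. In the 139 remaining cases the nearest start belonged to another gene, as with ush and cbt, and the summit was upstream of that start in 90 of them.

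Some of the peaks lay beside a promoter with an IDR peak of its own. At 33.0% of the 761 peaks (exact binomial interval 29.6 to 36.5) the nearest start had an IDR summit within 500 bp of it. The share was 36.4% for intronic peaks over 2000 and up to 10000 bp out and 23% for the weak regions, which by definition lie over 500 bp from any IDR summit. In the replicates' own lists it was 34.7%, 35.3% and 36.5% among the strongest regions under the rule and 25%, 23.9% and 21.9% among the rest. The difference was 11.9 ± 2.51 points, higher in 3 of 3 replicates (SD, n = 3, exact sign-flip permutation test, two-sided, p = 0.25, the smallest possible), and it too was chosen after the values had been seen. The IDR summits come from a set made from these same lists, so the difference is not independent of the ranks in them. Examples among the 20 strongest are CG32772, CG9663, ImpL2, neur, simj and Egfr, which had such a promoter peak, and CG11050, Lk6, Trl, HmgZ, jumu and for, which had none. Another IDR summit lay within 2000 bp of 417 peaks (54.8%) and within 250 bp of 81.

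The peaks were spread over 583 host genes, of which 460 held 1, 95 held 2, and 14 held 4 or more. CG1677 on X held 7, over 44001 bp. Of these, 3 had their nearest start at brk, the gene of a repressor of BMP targets that lies within CG1677, with scores of 658.7, 512.1 and 389.5. CHES-1-like, a forkhead factor gene, and shn, whose zinc finger protein acts in BMP signalling, held 6 each. So did Tlk, a gene of a kinase of the Tousled family. The strongest in shn, with a score of 1253.6, ranked 66, 158 and 153 in the replicates, and the others there scored between 244.8 and 684.6. Diap1, the caspase inhibitor gene, held 5, with scores from 196.8 to 801.8, each 649 to 874 bp from a start. Acsl, Svil and tou held 5 as well, and RhoGAP18B, Syp, Tpr2, Trl, sbb and tna held 4. These counts include neighbouring summits that share 1 region in a replicate: in Trl, 3 of the 4 fell in the same region of replicate 2, ranked 1404.

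In most gene lists, EGFR and Ras above all, genes hosted such a peak in larger shares than all genes with zones of like length. Muscle genes and neuronal channel genes did so in smaller shares. A gene can host one only if some of its intron lies in the zone. Of 9015 protein-coding genes with any such base, 607 or 6.73% hosted a peak, counting every host where introns of several genes overlap. That share was larger the longer the zone in the gene, from 0.302% under 500 bp to 32.9% at 4000 bp or more, and the listed genes have long zones. Among the 3031 genes with at least 1000 bp, 556 or 18.3% hosted one, which is a closer background. Where the listed genes have even longer zones, that share is still too low, so beside each list stands the share over all genes weighted to the zone lengths of the list's own genes, in 3 classes split at 2000 and 4000 bp. The lists were chosen with results of these data known, so no test was made of them.

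In the EGFR and Ras list 10 of 21 genes hosted a peak, and all 10 were among the 16 with at least 1000 bp (62.5%, with 19.4% over all genes of such zone lengths). Beside pnt and Egfr, the strongest was edl, which encodes an inhibitor of ETS factors, with a score of 1263.9 and ranks of 116, 175 and 73. Receptor, transcription factor and inhibitor of the pathway were thus all represented. Of the 10 genes, 9 had an IDR summit within 500 bp of one of their starts too, as did 13 of the 21 eligible genes of the list. Over all 607 hosts the share was 50.9%, and over all 9015 eligible genes 16.8%.

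In the BMP and activin list 6 of 19 genes hosted a peak, and 6 of 13 with the longer zone (46.2%, with 22.0% over all genes of such zone lengths). They were led by shn, by wit, a type II BMP receptor gene, and by dlp, the glypican gene. The strongest peak in wit scored 711.1, ranked 779, 389 and 285, and was 1104 bp from the start of CG32259. In the ecdysone response list it was 8 of 22, or 8 of 18 (44.4%, with 25.2% over such genes). After ImpL2 came tai, a coactivator of the ecdysone receptor, with a peak ranked 225, 165 and 970, and Eip74EF, an early ETS factor, ranked 787, 878 and 266. In replicate 3 tai ranked lower and Eip74EF higher than in the others, so the order of these genes differed between libraries.

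The nuclear receptor and juvenile hormone list had 5 of 21 genes, or 5 of 17 with the longer zone (29.4%, with 23.4% over such genes, so near the background). EcR, the ecdysone receptor gene, held 2 peaks, the stronger with a score of 335.5 and ranks of 1999, 7161 and 768, so that it was not among the strongest regions of replicate 2. The list also holds tai and Hr3. In Wnt and Hedgehog signalling 6 of 26 genes, or 6 of 18 (33.3%, with 19.7% over such genes), hosted a peak. These were led by sgg, the glycogen synthase kinase 3 gene, rdx, whose product targets the factor Ci for breakdown, and ptc, the Hedgehog receptor gene, with scores of 587.7, 459.4 and 439.9.

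In the JAK-STAT and Hippo list 6 of 23 genes, or 5 of 12 (41.7%, with 19.2% over such genes), hosted a peak, led by crb and ex, upstream regulators in the Hippo pathway, and Ptp61F, a phosphatase gene, with scores of 647.2, 476.9 and 426.2. The insulin and TOR list had 6 of 25, or 5 of 13 (38.5%, with 22.0% over such genes), with Lk6 first, then sima, the fly hypoxia-inducible factor, and Atg1, the autophagy kinase, at 623.8 and 530.7. The Atg1 peak also lies in an intron of CG42709, whose start is the nearest, 1929 bp away. In the Notch list 3 of 15, or 3 of 9 (33.3%, with 21.2% over such genes), did so. Below neur came mam, a Notch coactivator, at 266.0, and Notum, at 195.3. Notum is known as an extracellular Wnt antagonist, so the Notch share includes a host from outside the pathway. The share without it was not computed.

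Transcription factor genes hosted peaks in 18 of 73 cases, or 18 of 58 with the longer zone (31.0%, with 22.4% over such genes), 30 peaks in all, with zfh1 after ush and Trl at a score of 491.4. Chromatin genes did so in 7 of 48, or 7 of 24 (29.2%, with 16.7% over such genes), with nej, the fly CBP, at 476.6 and kis at 463.6 behind Trl. In the cell death and autophagy list, 5 of 22, or 4 of 11 (36.4%, with 15.9% over such genes), Diap1 was followed by Atg1, with the same peak shared with CG42709, and Atg8a, at 495.9. All these shares, that of the Notch list with Notum counted, stood above those of all genes with the same zone lengths. No test was made, and a list had 3 to 18 hosts.

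Nearer the background were cytoskeleton and adhesion genes with 9 of 43, or 9 of 37 (24.3%, with 20.2% over such genes), led by Msp300, Rho1 and ena at 590.5, 396.2 and 366.2. Metabolism and stress genes were at 4 of 33, or 3 of 15 (20%, with 16.6% over such genes), led by Hsp83, a chaperone gene, at 802.9, with Lsd-2 and bmm, a perilipin and a lipase gene, at 563.5 and 255.0. Neuronal channels and receptors reached 3 of 45, or 3 of 40 (7.50%, with 22.1% over such genes). They were Syn, the synapsin gene, at 600.9, Nmdar1 at 199.6 and mAChR-A at 194.0, and for the first 2 the nearest start was that of another gene, Timp and Itpr. None of 25 muscle genes hosted a peak, and 19 of these have at least 1000 bp of the zone, where 19.2% of such genes over all did.

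**Figure D3:**
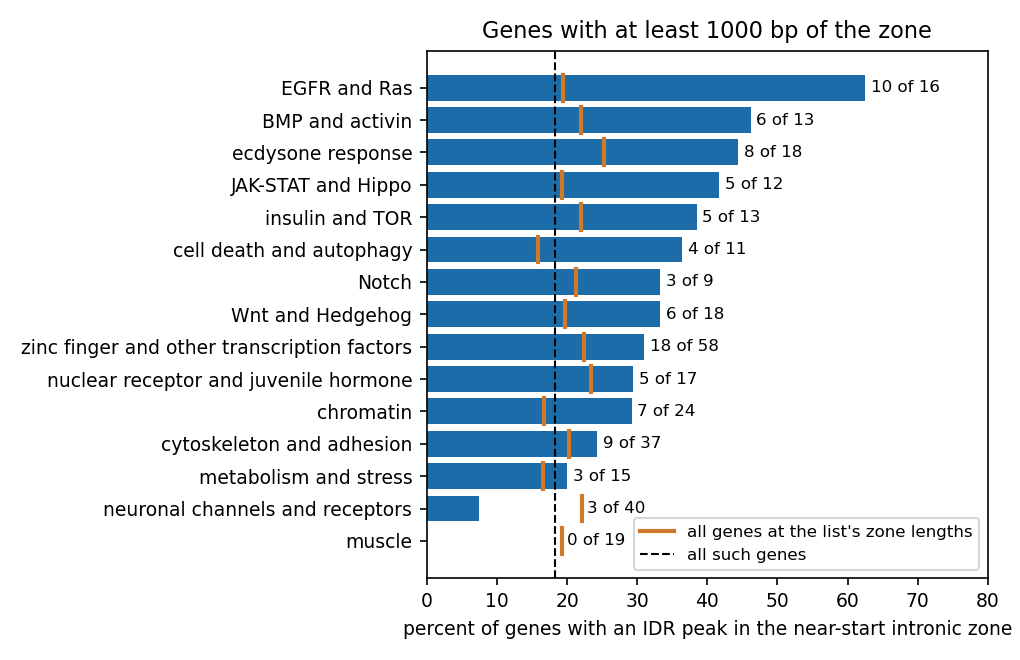
Percent of the genes with at least 1000 bp of near-start intronic zone that host an IDR peak in it, by gene list, with the counts beside each bar. The dashed line is the share over all 3031 such genes, 18.3%, and each short vertical mark the share over all genes at the zone lengths of that list; EGFR and Ras genes reach 62.5%, with their mark at 19.4%.

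By chromosome, 184 peaks lay on 3R, 160 on X, 153 on 2R, 147 on 3L and 117 on 2L, with 0 on chromosomes 4 and Y. Density in the zone was 7.27 peaks per 100 kb on X, 7.23 on 2R, 7.05 on 3R, 6.37 on 3L and 5.66 on 2L. X was looked at further after its share had been seen, and held 21.0% of the peaks, beside 19.2% of the zone's bases, 17.1% of the weak regions and 17.4% of the other IDR peaks. In the replicates X took 22.3%, 23.4% and 17.3% of the strongest regions under the rule and 20.1%, 19.4% and 12.1% of the rest. The difference was 3.78 ± 1.51 points (SD, n = 3, higher in 3 of 3, exact sign-flip permutation test, two-sided, p = 0.25, the smallest possible). X shares of both kinds were thus lowest in replicate 3.

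At the summit the DNA was poor in G+C, and the sides were richer. Within 50 bp of the summit the peaks averaged 35.9% G+C, while 101 to 200 bp away they averaged 43.7%, and 571 of 761 (75%) were lower at the summit than at the sides. The weak regions had 41.1% and 42.6%, nearly level. In the 191 strongest of the peaks the summit was at 32.6% and the sides at 44.7%, and 85.3% of these were lower at the summit, against 70.0% of the 190 weakest. The dip was also present in intronic peaks over 2000 and up to 10000 bp out, with 34.3% and 44.2%, and shallower in peaks within 500 bp of a start, with 40.4% and 43.7%. The order of depth thus ran from promoter to near intron to farther intron, as a description without a test.

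Each replicate showed the dip in its own strong regions. Their G+C content at the summit minus that at the sides was -6.53, -7.74 and -6.05 points in replicates 1, 2 and 3, while in the weak regions under the rule it was -0.782, -1.48 and -1.04. These values do not overlap. The mean difference between strong and weak was -5.67 ± 0.631 points, lower in 3 of 3 replicates (SD, n = 3, exact sign-flip permutation test, two-sided, p = 0.25, the smallest possible). Over 100 bp each side the mean G+C content of the peaks was 37.9%, beside 41.5% in the weak regions and 39.7% in 56839 windows of the same length that tile the zone.

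**Figure D4:**
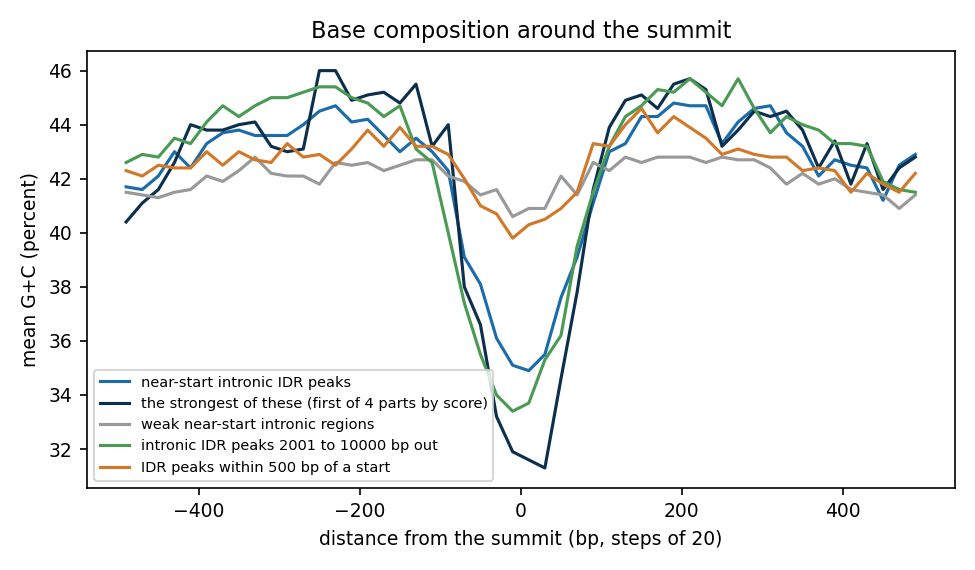
Mean G+C content in steps of 20 bp against the distance from the summit, for the near-start intronic peaks, the 191 strongest of them, the weak regions and 2 other classes of IDR peak; the y axis does not start at 0. The near-start intronic peaks fall to 34.9% just past the summit and the strongest to 31.6% there, while the weak regions stay at 40.9%.

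In search of words in the DNA, exact matches to both strands were counted up to 100 bp from the summit for 23 words of known factors or simple repeats, overlapping matches in a region counting once. In the replicates 7 words were found in a larger share of strong than of weak regions under the rule every time, 8 in a smaller share every time, and 8 in neither. The sets of IDR peaks and weak regions did not always follow: CAGGTAG, one of the 7, was in 0.788% of the peaks and 1.00% of the weak regions, and CAATTA, one of the 8, in 18.5% and 18.4%. For every word a difference in the same direction in all replicates gives a p of 0.25 in the exact sign-flip permutation test, the smallest possible. The 7 were the GA repeat GAGAGAG, the homeodomain word TAATTA, the GATA word AGATAA, the Stat92E word TTCNNNGAA, the Zelda word CAGGTAG, the core GGTCACAC of a promoter element, and an AAAAAAAA tract. In windows tiling the zone, AGATAA was in 13.2%, TTCNNNGAA in 6.67%, CAGGTAG in 1.01%, GGTCACAC in 0.283% and the A tract in 13.1%, beside 14.1%, 5.78%, 0.788%, 0.526% and 17.7% of the peaks. The 8 in a smaller share were the E-box words CACGTG and, for basic helix-loop-helix factors, CAGCTG, the Grainy head palindrome AACCGGTT, the ETS word CCGGAAGT, the Zeste word TGAGTG, the Su(H) core GTGGGAA, another homeodomain word CAATTA and the plain word GCCGCC. Those in neither were the repeat CACACACA, the replication-related element TATCGATA, the AP-1 word TGANTCA, the nuclear receptor word AGGTCA with its longer ftz-f1 form TCAAGGTCA, the forkhead word GTAAACA, the heat shock unit GAANNTTC and the CRE word TGACGTCA. The ETS word was in 0 of the 761 peaks and in 0.283% of the windows, and the other 15 were in 0.131% to 18.5% of the peaks and 0.176% to 21.6% of the windows.

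The homeodomain word TAATTA was found in 134 peaks (17.6%), beside 12.6% of the weak regions and 15.3% of the 56839 windows of 201 bp that tile the zone. In replicates 1, 2 and 3 it was in 14.6%, 15.1% and 15.3% of strong regions and in 12.4%, 12.9% and 12.3% of weak ones. The mean difference was 2.44 ± 0.473 points (SD, n = 3, higher in 3 of 3, exact sign-flip permutation test, two-sided, p = 0.25). It was -0.373 when only starts 501 to 1000 bp away were used, 0.853 with the 10000 strongest regions (exact sign-flip permutation p = 0.50) and 0.295 with 200 bp each side of the summit (exact sign-flip permutation p = 1.00). Within 300 bp of the summit the word was in 30.4% of peaks and 32.7% of weak regions, the reverse order of that within 100 bp. The word holds no G or C, and the regions that held it more often were those poorer in G+C, whose part in this was not tested.

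GAGAGAG was in 65 peaks (8.54%), beside 6.42% of the weak regions, 13.6% of peaks within 500 bp of a start, 5.99% of intronic peaks over 2000 and up to 10000 bp out and 3.11% of the windows. In the replicates it was in 10.8%, 10.3% and 6.71% of strong regions and in 7.50%, 6.88% and 5.30% of weak ones, a difference of 2.72 ± 1.14 points (SD, n = 3, higher in 3 of 3, exact sign-flip permutation test, two-sided, p = 0.25). Among the 191 strongest of the 761 peaks the word was in 6.28%, below the weak regions, and with the 2000 strongest regions of each replicate the difference was 1.28 points. By arm it was more frequent in peaks than in weak regions on 2R, 3L and 3R but not on 2L (5.13% and 6.06%) or X (6.25% and 7.55%). Within 300 bp of the summit the word was in 26.5% of peaks and 15.6% of weak regions. Where a copy lay within 300 bp, the nearest was a median of 134 bp from the summit in peaks and 126 bp in weak regions. Within 100 bp the shares were 8.54% and 6.42%, so much of the difference in shares was outside that window. With 200 bp each side the difference between strong and weak regions in the replicates was 8.54 points, and with 50 bp it was 1.13.

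A further word was sought without reference to any factor. All 8079 words of 7 bases found in the 430 peaks on 2L, 2R and X were ranked against the weak regions of those arms, and ACAGTGG came first, with 12.8% and 4.20%. On chromosome 3, not used for the ranking, it was in 7.25% of 331 peaks and 3.79% of weak regions. No factor is assigned to it here. The next words in the ranking, CACAGTG and CAGTGGG, overlap it, and the latter was not more frequent in peaks on chromosome 3, with 2.42% and 3.71%. Only chromosome 3 therefore bears on the word apart from its choice. There it was in 6.51%, 7.90% and 6.94% of strong regions under the rule in replicates 1, 2 and 3, and in 4.31%, 3.55% and 3.51% of weak ones. These groups do not overlap, and the mean difference was 3.33 ± 1.09 points (SD, n = 3, higher in 3 of 3, exact sign-flip permutation test, two-sided, p = 0.25, the smallest possible). The values over all arms that follow include the arms used for the choice and are a description.

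Over all arms ACAGTGG was in 79 peaks (10.4%), beside 4.01% of the weak regions, 7.08% of intronic peaks over 2000 and up to 10000 bp out, 6.05% of peaks within 500 bp of a start and 2.61% of the windows. On X it was in 18.1% of peaks and 6.71% of weak regions, on 3L in 6.12% and 3.87%, and on 3R in 8.15% and 3.71%. Over all arms the replicates had it in 9.13%, 12% and 9.32% of strong regions and 4.47%, 4.10% and 3.40% of weak ones. Its copies were fewer at the summit itself: the nearest one lay within 50 bp in 23 peaks and 51 to 100 bp away in 60, as in the printed stretches at neur, for and CG17834. At Lk6 it was among those within 50 bp. In the weak regions 61 and 58 copies lay at those distances.

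**Figure D5:**
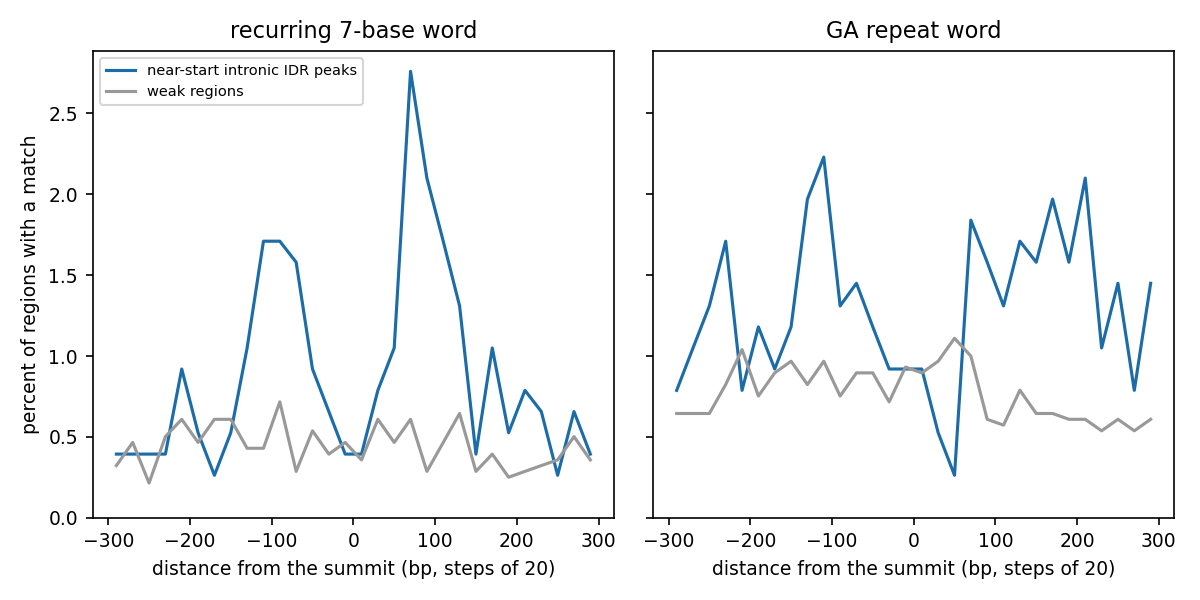
Percent of near-start intronic IDR peaks and of weak regions with a match to ACAGTGG (left, titled recurring 7-base word) or GAGAGAG (right, titled GA repeat word) in steps of 20 bp from the summit. In the peaks ACAGTGG is most frequent 60 to 120 bp on either side of the summit. GAGAGAG is more frequent in most steps beyond 60 bp than in the steps at the summit (0.920% each), and lowest 40 to 60 bp past it (0.263%).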

How the data were processed

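Peak lists on dm6 were used: 1 per replicate and 1 pooled, of 30000 regions each, and the IDR set. The authors made them from the alignments, per the file listings; for the caller, aligner, versions and IDR threshold, nothing is given in the sources used. Each region's score is the deposited value of the authors, which served here for ranks and descriptions inside 1 list at a time. The lists on dm3 were not used.

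Coordinates are 1-based on dm6, set against the RefSeq assembly (0 regions ran past an arm end), and annotated with Ensembl release 115 without transposable elements. Sequences are from that RefSeq genome, with none printed from arm 2R. Comparisons take 1 value per replicate and use an exact sign-flip permutation test, two-sided; intervals are exact binomial at 95% and cover counting error only. Depth is unknown. Word matching, overlap and the test were tested on simulated data. Python 3.11.15, numpy 2.4.6 and scipy 1.17.1 were used.

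Named genes are the hosts and nearest-start genes of the 20 strongest peaks, hosts of 4 or more, the 3 strongest hosts in each gene list and those next to the distance limits. Any other gene was picked after seeing its values. The peaks and lists were chosen with earlier results of these data known. Alternatives were other numbers of strongest regions, overlap rules, distance limits, sequence windows and start sets, and leaving out each replicate.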

Additional observations from a re-analysis of the deposited data

How the results depend on the processing

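No paired analysis was possible because all samples belong to 1 group. Of 81 values under alternatives, 64 were classed as unchanged. For differences this means the sign alone. The counts and shares in this class stayed near the first value, with an exception. The exception was the number of near-start intronic peaks, which rose from 761 to 1012 with the lower limit moved to just over 250 bp. That range is wider by construction. The number of near-start intronic peaks was 352 with limits of 501 to 1000 bp and 398 among IDR peaks with scores above the median, both narrower by construction. The difference in matching between these peaks and other IDR peaks, near 0 to begin with, changed sign to 2.41 and 0.226 points with 2000 and 10000 strongest regions, 0.409 with protein-coding starts only, 0.107 with the lower limit moved to just over 250 bp, 0.882 with limits of 501 to 1000 bp, 0.467 above the median score and 1.36 for summits within 100 bp; leaving out each replicate gave -1.92 to 1.70. The difference in score percentile ran from -0.112 to 0.582 on leaving out each replicate. The share with a promoter peak was 21.5% with the lower limit just over 250 bp, where the promoter window was cut to 250 bp. It was 27.8% with limits of 501 to 1000 bp and 22.4% with only IDR peaks above the median score. With all IDR peaks used, it was 37.2% in the 191 strongest near-start intronic peaks and 40.0% in the next 190. It was 26.8% and 27.9% in the following groups of 190 peaks each. The 22.4% therefore does not describe a lower share among stronger peaks. The share in a first intron was 85.6% with limits of 501 to 1000 bp. The TAATTA difference was -0.373 with those limits, and 0.295 with 200 bp windows. The cause was not tested for the other changes. Settings for ACAGTGG and the gene zone lengths were chosen after seeing the data. The ACAGTGG difference, 6.15 points over all arms, was 1.41 with 50 bp windows and 3.33 on chromosome 3 alone; its sign over arms used to choose it says nothing about stability. Lists of fixed length and unknown depth mean that a missing region was only not listed.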
